A study of Homo sapiens with 6 samples.

Results

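Autophagy machinery genes were followed in PC3-ML cells, which derive from the human prostate cancer line PC-3 and are metastatic, after a day of CDK4/6 inhibition. The 37 genes were listed by name and cover the initiation kinase complex, the class III phosphatidylinositol 3-kinase complex, the WIPI and ATG2 proteins, the conjugation enzymes, the ATG8 family and the cargo receptors; for each gene the brightest transcript cluster naming that gene alone was taken, and all 37 were measured among 22375 genes in all. Of the 6 arrays of total RNA, 3 were from PC3-ML cells given the DMSO vehicle and 3 from PC3-ML cells given 500 nM PD 0332991 in DMSO, each for 24 h, in DMEM with serum. PD 0332991, or palbociclib, blocks CDK4 and CDK6, kinases that act on the retinoblastoma protein. PC3-ML is a single cell line grown in culture, and PC-3, from which it derives, lacks functional p53. Whether arrays of the same group had separate cultures behind them is not given in the labels; p-values therefore reflect the spread among these 6 samples alone, and that spread may be technical.

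Autophagy encloses cytoplasm in a double membrane, the autophagosome, and delivers it to the lysosome. The ULK kinase complex starts the process, the PI3-kinase complex marks the forming membrane with the lipid PI3P, WIPI proteins bind that lipid, and ATG2 proteins carry lipid into the growing membrane. Ubiquitin-like conjugation then attaches LC3 and GABARAP proteins to the membrane, where cargo receptors bind them. The pathway is held back by mTORC1, and its genes are transcribed under factors such as TFEB. The arrays measured transcript levels only, and in bulk RNA a lower level in each cell and fewer cells carrying a transcript cannot be told apart.

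The state of the cells is shown by 5 proliferation genes. MKI67, which encodes Ki-67, was 22.4-fold lower with PD 0332991 and RRM2, a ribonucleotide reductase subunit, 9.50-fold lower; TOP2A, CCNA2 and CDK1 lay between them (limma adjusted p from 1.68e-07 to 4.03e-06). Median levels over the genes tested were 5.33 to 5.37 log2 units on the 6 arrays. The epithelial genes KRT8 and KRT18 had means of 11.20 to 11.62 log2 units in the groups and VIM, the mesenchymal filament gene, 12.26 to 12.51. The epithelial genes EPCAM and CDH1 were lower, at 6.49 to 6.90. KRT8 was higher (0.31, adjusted p = 0.0449) and VIM lower (-0.24, adjusted p = 0.0250) with PD 0332991. KRT18 (0.02, adjusted p = 0.911), EPCAM (0.07, adjusted p = 0.378) and CDH1 (0.08, adjusted p = 0.326) did not pass the limma threshold. The 14 leukocyte, stromal, endothelial and neural markers measured had group means of 3.81 to 4.57 log2 units, with CD68, a lysosomal membrane protein of macrophages, as the exception at 11.33 with DMSO and 11.61 with PD 0332991 (adjusted p = 0.0302). CD68 was the marker of these 14 that passed the threshold, and its part in the results below was not tested.

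WIPI1 had the largest change of the 37 genes and PIK3C3 the next, and their promoter windows are printed as the sequences of the genes whose calls held whichever array was left out. That of ATG3, the E2-like enzyme of LC3 conjugation, is printed because it carries the core of the CLEAR element bound by TFEB at more than 1 position. Windows are those of RefSeq on GRCh38.p14, 250 bases before to 50 after each annotated start, written 5′ to 3′ on the gene's strand, and 32 of the 37 genes had one; ATG4D, BNIP3L, MAP1LC3A, RB1CC1 and UVRAG had none. Capitals mark matches on either strand, overlaps included, to the E-box core CACGTG, the CCAAT box CCAAT or the GC box GGGCGG. The WIPI1 window lies at chr17:68457447-68457746 on the minus strand, that of PIK3C3 at chr18:41954984-41955283 on the plus strand and that of ATG3 at chr3:112561913-112562212 on the minus strand.
WIPI1: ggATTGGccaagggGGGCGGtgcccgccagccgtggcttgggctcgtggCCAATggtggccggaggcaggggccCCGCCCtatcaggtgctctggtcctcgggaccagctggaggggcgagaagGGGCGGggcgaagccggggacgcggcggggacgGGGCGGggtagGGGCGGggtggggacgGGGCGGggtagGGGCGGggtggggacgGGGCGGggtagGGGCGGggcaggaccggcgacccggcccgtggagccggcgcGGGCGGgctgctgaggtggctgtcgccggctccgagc
PIK3C3: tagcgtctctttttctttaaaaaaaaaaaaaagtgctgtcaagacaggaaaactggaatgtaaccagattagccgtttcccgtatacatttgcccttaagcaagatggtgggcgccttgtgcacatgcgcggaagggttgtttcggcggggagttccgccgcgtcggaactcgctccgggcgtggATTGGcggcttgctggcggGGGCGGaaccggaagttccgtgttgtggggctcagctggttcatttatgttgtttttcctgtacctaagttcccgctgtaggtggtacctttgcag
ATG3: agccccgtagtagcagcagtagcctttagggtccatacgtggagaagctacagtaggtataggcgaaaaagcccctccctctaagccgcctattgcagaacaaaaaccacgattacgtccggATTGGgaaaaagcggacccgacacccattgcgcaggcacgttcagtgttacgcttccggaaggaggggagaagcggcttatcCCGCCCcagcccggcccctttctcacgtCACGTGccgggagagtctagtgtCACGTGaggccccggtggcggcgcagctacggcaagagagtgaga

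The WIPI1 window holds 10 GC boxes, the site bound by SP1-type factors, and 61 of 27305 promoters (0.223%) hold as many or more; its GC content is 79.7%, a value reached by 2.85% of promoters. The CCAAT and GC boxes were chosen after the sequence was seen. The E-box core CACGTG occurs in 3 of the 32 windows (9.38%), those of ATG3, ATG14 and BNIP3, and in none of the 6 members that rose. It was in 7.43% of all promoters and 8.55% of the promoters of the genes tested. An E2F site, spelled TTTGGCGC, TTTCCCGC or TTTCGCGC, was in 1 of 32, that of ATG2A (3.13%). The shares were 2.79% of all promoters and 3.55% of those of the genes tested. GC boxes were in 22 of the 32 windows (68.8%), against 44.6% of all promoters and 57.4% of the promoters of the genes tested; the median GC content was 64.67% in the 32 windows and 58.33% in all promoters. CCAAT boxes were in 11 (34.4%, against 35.7% of all promoters and 36.3% of those of the genes tested). The FOXO site GTAAACAA and the amino acid response element TGATGNAAT were in none of the 32. They were in 0.941% and 1.02% of all promoters, and 0.75% and 0.704% of those of the genes tested. The CRE site TGACGTCA was in 1, that of GABARAPL1 (3.13%, against 1.98% of all promoters and 2.59% of those of the genes tested). A match is a string of letters, not a measured binding site, and its absence describes this window only.

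Of the 37 genes, 6 rose with PD 0332991 (WIPI1, PIK3C3, NBR1, ATG2B, GABARAP and TAX1BP1), none fell and 31 did not pass the threshold, an adjusted p under 0.05 by limma with Benjamini-Hochberg adjustment over all genes tested. That is 16.2% higher, beside 5.57% of all 22375 genes higher and 5.74% lower; among the 14031 genes above the median level of all transcript clusters, where 36 of the 37 lie, 8.5% were higher and 9.02% lower. At an unadjusted p under 0.05, 15 of the 37 were higher (40.5%, beside 13.4% of all genes) and 2 lower (5.41%, beside 10.5%), namely BNIP3 and ATG3. In 17 the 3 PD 0332991 values all lay above the 3 DMSO values (45.9%, beside 17.2% of all genes), and in 1, ATG3, all lay below (2.70%, beside 12.6%). WIPI1, whose rise was known when the genes were listed, is counted in the 6, the 15 and the 17. The other members were also listed with earlier results of these data known. These shares are therefore a description and not a test of the list. Shares at an unadjusted p and without overlap were taken over all genes, dim ones included, and not over the 14031 genes alone. The median log2 change was 0.08, with 24 genes above 0, beside a median of 0.02 over all genes, 58.0% of which were above 0. WIPI1 and PIK3C3 passed whichever array was left out. The number that rose was 3 without DMSO 1, 2 without DMSO 2, 4 without DMSO 3, 3 without PD 0332991 replicate 1, 2 without PD 0332991 replicate 2 and 4 without PD 0332991 replicate 3; without DMSO 3, BNIP3 also fell (-0.48, adjusted p = 0.0415).

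**Figure D1:**
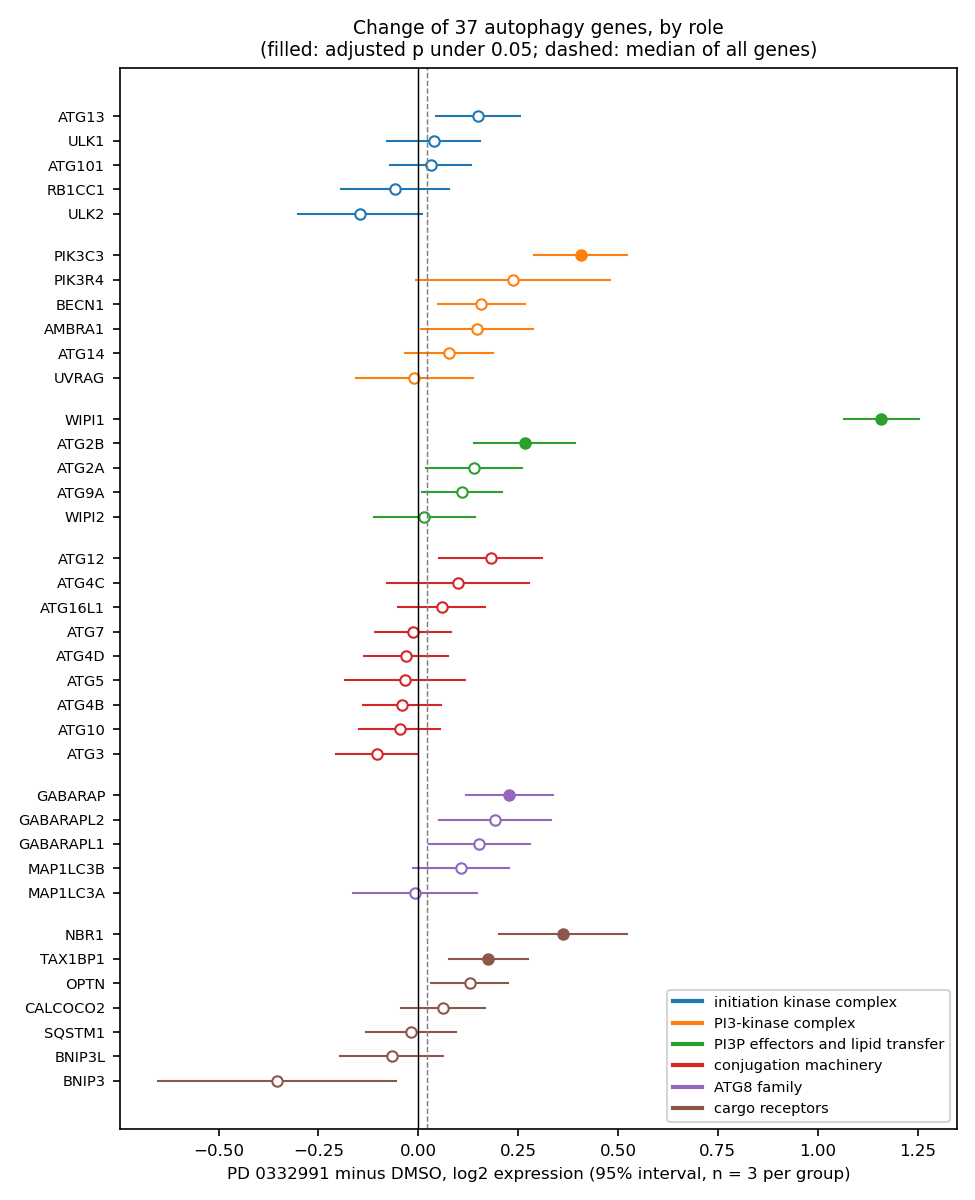
Log2 change (PD 0332991 minus DMSO, x axis) of the 37 autophagy genes, listed on the y axis by role, with 95% intervals from limma (n = 3 arrays per group). Filled points passed the threshold; WIPI1 stands at 1.16 while the other genes lie between -0.35 and 0.41, and the dashed line is the median of all genes, 0.02.

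In the initiation kinase complex none of the 5 genes passed limma's threshold, and the median log2 change was 0.03. At an unadjusted limma p under 0.05, 1 was higher (20%) and 0 lower, beside 13.4% and 10.5% of all genes. ULK1, the kinase that starts autophagosome formation, read 6.01, 5.96 and 5.97 log2 units with DMSO and 5.997, 5.97 and 6.10 with PD 0332991. The groups overlapped, and the log2 change was 0.04 (95% interval -0.08 to 0.16, adjusted p = 0.718). Its relative ULK2 read 7.33, 7.34 and 7.49 with DMSO and 7.20, 7.20 and 7.34 with PD 0332991. PD 0332991 replicates 1 and 2 were the low samples, the groups overlapped at DMSO 1 and PD 0332991 replicate 3, and the log2 change was -0.15 (95% interval -0.30 to 0.01, adjusted p = 0.235). Of the partners, the regulatory subunit ATG13 had a log2 change of 0.15 (adjusted p = 0.0835) with no overlap between groups. ATG101, which stabilises ATG13, had a change of 0.03 (adjusted p = 0.744) and the scaffold RB1CC1, also called FIP200, one of -0.06 (adjusted p = 0.616).

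In the class III PI3-kinase complex, which makes PI3P, the catalytic subunit rose and its 5 partners did not pass. That is 16.7% of the complex, beside 5.57% of all genes and 8.5% of those above the median level of all clusters. PIK3C3, the catalytic subunit also called VPS34, read 8.89, 8.94 and 8.92 log2 units with DMSO and 9.34, 9.25 and 9.38 with PD 0332991. The groups did not overlap, and the rise was 1.33-fold (log2 change ± SE, 0.41 ± 0.049, n = 3 per group, limma adjusted p = 0.00290). With an array left out its adjusted p was 0.00520 to 0.0172. The scaffold PIK3R4, or VPS15, had a log2 change of 0.24 (95% interval -0.01 to 0.48, adjusted p = 0.221), with no overlap and an SD of 0.211 among the PD 0332991 arrays against 0.052 with DMSO. BECN1, the Beclin 1 gene, had a change of 0.16 (95% interval 0.05 to 0.27, adjusted p = 0.0803), and AMBRA1, its activator, one of 0.15 (adjusted p = 0.184), both with no overlap. The alternative partners of Beclin 1, ATG14 for the autophagosome and UVRAG for endosomes, had log2 differences of 0.08 (adjusted p = 0.397) and of -0.01 (adjusted p = 0.951). The complex's median log2 change was 0.15.

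Among the 5 genes of PI3P binding and lipid delivery, 2 rose, and all 5 had changes above 0, with a median of 0.14. The 2 are ATG2B and WIPI1, and the rise of WIPI1 was known beforehand, so the count is a description. Over all genes, 5.57% rose and 58.0% had changes above 0. Among those above the median level of all clusters 8.5% rose. WIPI1, a PI3P-binding propeller protein of the forming autophagosome, read 9.27, 9.28 and 9.28 log2 units with DMSO and 10.44, 10.41 and 10.47 with PD 0332991. All 3 treated arrays lay over 1 log2 unit above all 3 vehicle arrays, while arrays within a group differed little (SD 0.0057 and 0.030). The level was 2.23-fold higher, the fourth largest rise among the 22375 genes (log2 change 1.16 ± 0.040 SE, 95% interval 1.07 to 1.25, adjusted p = 6.58e-06). That rise was known when the genes were listed, so it is given as a description. WIPI2, the relative that brings ATG16L1 to PI3P, read 7.66, 7.70 and 7.70 with DMSO and 7.75, 7.60 and 7.75 with PD 0332991. PD 0332991 replicate 2 was the lowest of the 6, the groups overlapped, and the log2 change was 0.02 (95% interval -0.11 to 0.14, adjusted p = 0.907). WIPI1 minus WIPI2 came to 1.14 (95% interval 1.05 to 1.24, exact permutation p = 0.1, the smallest that 3 against 3 arrays allow). This pair was chosen with the rise of WIPI1 known, so the difference is a description too.

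The lipid transfer gene ATG2B read 9.09, 9.12 and 9.24 log2 units with DMSO and 9.40, 9.40 and 9.46 with PD 0332991. The groups did not overlap, DMSO 3 being the vehicle array nearest to the treated ones, and the rise was 1.20-fold (log2 change 0.27 ± 0.054 SE, adjusted p = 0.0218). The call held without DMSO 3 (adjusted p = 0.0182) and was lost without any other array, with adjusted p from 0.0617 (PD 0332991 replicate 1) to 0.0815 (DMSO 2). Its relative ATG2A read 6.48, 6.54 and 6.42 with DMSO and 6.57, 6.63 and 6.67 with PD 0332991. The groups did not overlap, but the log2 change of 0.14 did not pass (adjusted p = 0.147), and ATG2A minus ATG2B was -0.13 (95% interval -0.34 to 0.09, exact permutation p = 0.3). ATG9A, the scramblase of the seed vesicles, had a change of 0.11 (95% interval 0.01 to 0.21, adjusted p = 0.168), with no overlap.

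**Figure D2:**
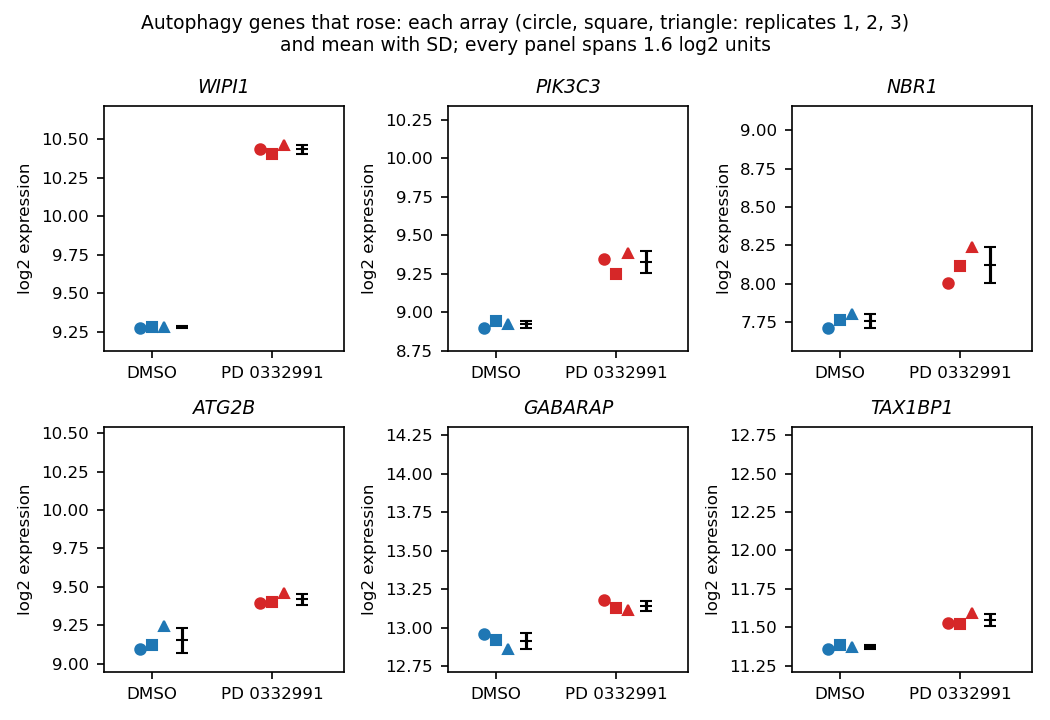
Log2 expression (y axis) of the 6 autophagy genes that rose, for each DMSO and PD 0332991 array (x axis), with the mean and SD (n = 3) beside the points; every panel spans the same range. The groups do not overlap in any panel, and WIPI1 has a difference of 1.16 while the other 5 genes have differences from 0.175 (TAX1BP1) to 0.41 (PIK3C3).

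The conjugation enzymes had the lowest median of the 6 roles, -0.03, with 3 of 9 genes above 0 and none past limma's threshold. With the limma p unadjusted and under 0.05, 1 was higher and 1 lower (11.1% each), beside 13.4% and 10.5% of all genes. ATG12, the ubiquitin-like protein joined to ATG5, had a log2 change of 0.18 (95% interval 0.05 to 0.31, adjusted p = 0.0872) with no overlap. Its partners ATG5 and ATG16L1 had log2 differences of -0.03 (adjusted p = 0.825) and of 0.06 (adjusted p = 0.520). The E1-like enzyme ATG7 had a change of -0.01 (95% interval -0.11 to 0.08, adjusted p = 0.894) and ATG10, the E2-like enzyme of ATG12, one of -0.05 (adjusted p = 0.597). ATG3 did not pass, with a change of -0.10 (95% interval -0.20 to -0.00050, adjusted p = 0.206), and its groups did not overlap.

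The ATG4 proteases trim LC3 and GABARAP proteins before conjugation and release them afterwards. ATG4B read 5.75, 5.82 and 5.79 log2 units with DMSO and 5.73, 5.76 and 5.74 with PD 0332991, with overlap (log2 change -0.04, adjusted p = 0.641). ATG4D read 6.62, 6.66 and 6.61 with DMSO and 6.54, 6.64 and 6.61 with PD 0332991, also with overlap (log2 change -0.03, adjusted p = 0.760). The changes of this pair differed by -0.01 (95% interval -0.08 to 0.06, exact permutation p = 0.8), an interval that leaves room for a difference of at most 0.08 log2 units. ATG4C had a change of 0.10 (adjusted p = 0.509), and PD 0332991 replicate 3 was its highest array. ATG4A, which is outside the 37 genes and was listed among further membrane genes, rose by 0.37 on the log2 scale (adjusted p = 0.0156); its call was lost without DMSO 2 (0.0586), PD 0332991 replicate 1 (0.0565) or PD 0332991 replicate 3 (0.0535).

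In the ATG8 family, whose proteins are joined to the autophagosome membrane, GABARAP rose and 4 of the 5 genes had no overlap between groups, all 4 higher with PD 0332991. Over all genes, 5.57% rose and 17.2% were higher with no overlap. Among those above the median level of all clusters 8.5% rose. GABARAP read 12.96, 12.92 and 12.86 log2 units with DMSO and 13.18, 13.13 and 13.11 with PD 0332991. Every treated array was above every vehicle array, and the rise was 1.17-fold (log2 change 0.23 ± 0.046 SE, adjusted p = 0.0223). That call was lost without DMSO 2 (adjusted p = 0.0748), DMSO 3 (0.0730), PD 0332991 replicate 1 (0.0828) or PD 0332991 replicate 2 (0.0643). GABARAPL1, a close relative, read 5.41, 5.30 and 5.30 with DMSO and 5.55, 5.44 and 5.47 with PD 0332991. GABARAPL2, also called GATE-16, read 10.26, 10.39 and 10.31 with DMSO and 10.49, 10.45 and 10.60 with PD 0332991. In both genes the groups did not overlap, with log2 changes of 0.15 (adjusted p = 0.131) and 0.19 (adjusted p = 0.0915) that did not pass. GABARAPL1 minus GABARAPL2 was -0.04 (95% interval -0.29 to 0.21, exact permutation p = 0.8).

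MAP1LC3B, which encodes LC3B, the usual protein marker of autophagosomes, read 9.90, 9.87 and 9.82 log2 units with DMSO and 9.94, 9.93 and 10.05 with PD 0332991. The treated arrays lay just above the vehicle arrays, and the log2 change of 0.11 did not pass (95% interval -0.01 to 0.23, adjusted p = 0.263). MAP1LC3A read 3.93, 4.14 and 4.09 with DMSO and 4.10, 4.04 and 3.99 with PD 0332991. These values lie below each array's median over all transcript clusters, so a change of this gene would be hard to see; its log2 change was -0.01 (adjusted p = 0.961). MAP1LC3A minus MAP1LC3B was -0.12 (95% interval -0.40 to 0.17, exact permutation p = 0.3).

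Of the 7 cargo receptors, 2 rose. That is 28.6%, beside 5.57% of all genes and 8.5% of those above the median level of all clusters. The receptors' changes ran from -0.35 to 0.36. NBR1, a receptor for ubiquitinated cargo, read 7.71, 7.76 and 7.80 log2 units with DMSO and 8.01, 8.12 and 8.24 with PD 0332991. The groups did not overlap, the treated arrays being the more spread (SD 0.118 against 0.047), and the rise was 1.29-fold (log2 change 0.36 ± 0.067 SE, adjusted p = 0.0161). The call was lost without DMSO 1 (adjusted p = 0.0598), DMSO 2 (0.0574) or PD 0332991 replicate 2 (0.0533). SQSTM1, the p62 receptor that NBR1 resembles in domain plan, read 9.14, 9.18 and 9.18 with DMSO and 9.19, 9.08 and 9.17 with PD 0332991. Its groups overlapped, and the log2 change was -0.02 (95% interval -0.13 to 0.09, adjusted p = 0.872). SQSTM1 minus NBR1 came to -0.38 (95% interval -0.60 to -0.16, exact permutation p = 0.1).

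TAX1BP1, a ubiquitin-binding receptor, read 11.36, 11.39 and 11.37 log2 units with DMSO and 11.53, 11.52 and 11.59 with PD 0332991. The groups did not overlap and the rise was 1.13-fold (log2 change 0.175 ± 0.042 SE, adjusted p = 0.0412), the call nearest to the threshold. It was lost whichever array was left out, with adjusted p from 0.0807 (PD 0332991 replicate 2) to 0.116 (DMSO 1). Its relative CALCOCO2, or NDP52, had a change of 0.06 (adjusted p = 0.487), and OPTN, optineurin, one of 0.13 (95% interval 0.03 to 0.22, adjusted p = 0.0994) with no overlap.

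The mitochondrial receptors BNIP3 and BNIP3L, which mark mitochondria for removal and respond to low oxygen, did not pass. BNIP3 read 11.65, 11.48 and 11.19 log2 units with DMSO and 11.22, 11.09 and 10.94 with PD 0332991. DMSO 3 lay below PD 0332991 replicate 1, so the groups overlapped, and the SD of 0.235 with DMSO was the largest of any of the 37 genes in either group. The log2 change was -0.35 (95% interval -0.65 to -0.06, adjusted p = 0.138), and without DMSO 3 it was -0.48 (adjusted p = 0.0415). BNIP3L read 12.57, 12.51 and 12.43 with DMSO and 12.46, 12.37 and 12.48 with PD 0332991, with overlap and a change of -0.07 (adjusted p = 0.545). BNIP3 minus BNIP3L was -0.29 (95% interval -0.65 to 0.08, exact permutation p = 0.1).

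**Figure D3:**
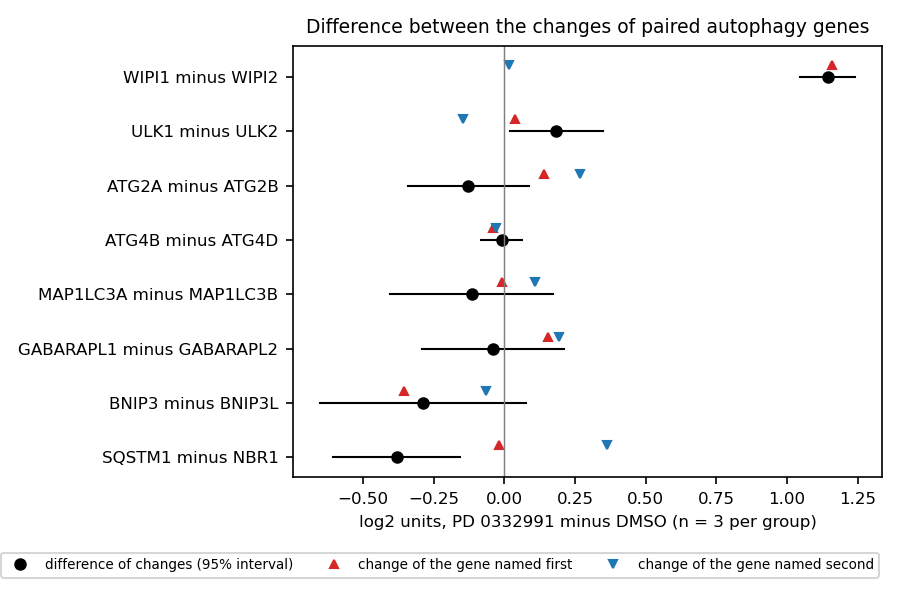
Differences between the log2 changes of 8 pairs of related autophagy genes (black points, x axis, with 95% intervals, n = 3 arrays per group), with the change of each gene above them as coloured triangles. The intervals of WIPI1 minus WIPI2 (1.05 to 1.24), ULK1 minus ULK2 (0.02 to 0.35) and SQSTM1 minus NBR1 (-0.60 to -0.16) leave out 0. The rise of WIPI1 was known when its pair was chosen.

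In all, 8 pairs of related genes were compared, and 4 reached the smallest exact permutation p of 0.1: WIPI1 with WIPI2, ULK1 with ULK2, BNIP3 with BNIP3L and SQSTM1 with NBR1. Their Benjamini-Hochberg adjusted p over the 8 pairs was 0.2, so no pair could pass 0.05 by this test with 3 arrays per group. For WIPI1 with WIPI2 the values are a description, as the rise of WIPI1 was known beforehand. ULK1 minus ULK2 was 0.18 (95% interval 0.02 to 0.35). Intervals come from a linear model on the difference between both genes on each array and are not adjusted over the pairs.

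Genes acting around the 37 were read from 5 further lists, also chosen with earlier results of these data known. Among the 14 measured genes of autophagosome and lysosome fusion, 5 rose (35.7%) and none fell, with a median log2 change of 0.11. Over all genes 5.57% rose, and 8.5% of those above the median level of all clusters. At an unadjusted limma p under 0.05, 6 of the 14 were higher (42.9%) and 0 lower, beside 13.4% and 10.5% of all genes. VPS39, a subunit of the HOPS tethering complex, read 11.16, 11.22 and 11.27 log2 units with DMSO and 11.80, 11.73 and 11.70 with PD 0332991. The groups were far apart for their spread, a rise of 1.44-fold (log2 change 0.52 ± 0.049 SE, adjusted p = 0.000925). FYCO1, which links autophagosomes to kinesin, rose by 0.29 (adjusted p = 0.00943) on the log2 scale, and these 2 calls held whichever array was left out. The HOPS subunits VPS41 (0.27, adjusted p = 0.0223) and VPS18 (0.25, adjusted p = 0.0466) also rose, as did TECPR1 (0.17, adjusted p = 0.0397), a PI3P-binding tether counted in the next list too. Their calls were lost in 4, 5 and 6 of the 6 runs with an array left out: VPS41 held without DMSO 3 or PD 0332991 replicate 2, VPS18 without DMSO 2, and the highest adjusted p were 0.0819, 0.134 and 0.124. The HOPS subunits VPS33A (0.16, adjusted p = 0.0593), VPS16 (0.06, adjusted p = 0.643) and VPS11 (-0.01, adjusted p = 0.944) did not pass. They are named here with their values already seen.

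Of 12 further membrane and PI3P genes measured, 3 rose (25%) and none fell, with a median of 0.08. Over all genes 5.57% rose, and 8.5% of those above the median level of all clusters. At an unadjusted limma p under 0.05, 4 of the 12 were higher (33.3%) and 0 lower, beside 13.4% and 10.5% of all genes. Besides ATG4A and TECPR1, ZFYVE1 rose (0.29, adjusted p = 0.0295), which encodes the DFCP1 protein that marks PI3P-rich sites on the endoplasmic reticulum. Its call held without DMSO 3 and was lost without any other array (highest adjusted p 0.102). Of 15 further cargo receptors of the endoplasmic reticulum and mitochondria, 2 rose and none fell. That is 13.3% higher, beside 5.57% of all genes and 8.5% of those above the median level of all clusters. The list's median was 0.03. At an unadjusted limma p under 0.05, 4 were higher (26.7%) and 1 lower (6.67%), beside 13.4% and 10.5% of all genes. The 2 that rose were NCOA4, the receptor that delivers ferritin for degradation (0.34, adjusted p = 0.0218), and CALCOCO1, an endoplasmic reticulum and Golgi receptor (0.28, adjusted p = 0.0155). NCOA4 kept its call without DMSO 3 or PD 0332991 replicate 1 and CALCOCO1 without DMSO 1 or PD 0332991 replicate 3; the highest adjusted p were 0.0633 and 0.0612.

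Among 29 genes of mTORC1, AMPK and the TSC complex, 1 rose and 1 fell (3.45% each, beside 5.57% and 5.74% of all genes). Of the genes above the median level of all clusters, 8.5% rose and 9.02% fell. The list's median log2 change was 0.03. At an unadjusted limma p under 0.05, 5 were higher (17.2%) and 4 lower (13.8%), beside 13.4% and 10.5% of all genes. RHEB, the GTPase that activates mTORC1, read 9.77, 9.85 and 9.81 log2 units with DMSO and 9.41, 9.41 and 9.32 with PD 0332991. All treated arrays were below all vehicle arrays, and it was 1.35-fold lower (log2 change -0.43 ± 0.047 SE, adjusted p = 0.00197). DDIT4, or REDD1, which restrains mTORC1 through the TSC complex, read 6.04, 5.95 and 5.92 with DMSO and 6.41, 6.27 and 6.32 with PD 0332991. It rose 1.29-fold (log2 change 0.36 ± 0.055 SE, adjusted p = 0.00751), and both calls held whichever array was left out. The kinase gene MTOR was chosen once its value had been seen; its log2 change was 0.18 (adjusted p = 0.110).

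Of 15 transcriptional regulators of autophagy genes and related cofactors, 3 rose and none fell. That is 20% higher, beside 5.57% of all genes and 8.5% of those above the median level of all clusters. The list's median was 0.05. At an unadjusted limma p under 0.05, 3 were higher (20%) and 1 lower (6.67%), beside 13.4% and 10.5% of all genes. The 3 that rose were XBP1, a factor of the unfolded protein response (0.49, adjusted p = 0.0228), and the LC3-binding proteins TP53INP2 (0.49, adjusted p = 0.0234) and TP53INP1 (0.31, adjusted p = 0.0471). TP53INP1 lost its call whichever array was left out (adjusted p up to 0.118). XBP1 lost its call without DMSO 1 (0.0538), PD 0332991 replicate 1 (0.0640) or PD 0332991 replicate 2 (0.0609), while TP53INP2 kept its call without DMSO 1 (0.0155) or PD 0332991 replicate 1 (0.0422) and lost it in the other runs (0.0664 to 0.0822). TFEB, chosen with its value already seen, had a log2 change of 0.04 (95% interval -0.07 to 0.16, adjusted p = 0.682) at a mean of 4.38 with DMSO, below the arrays' medians over all clusters. MITF and FOXO3, chosen likewise, differed by 0.03 (adjusted p = 0.818) and by 0.02 (adjusted p = 0.904).

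**Figure D4:**
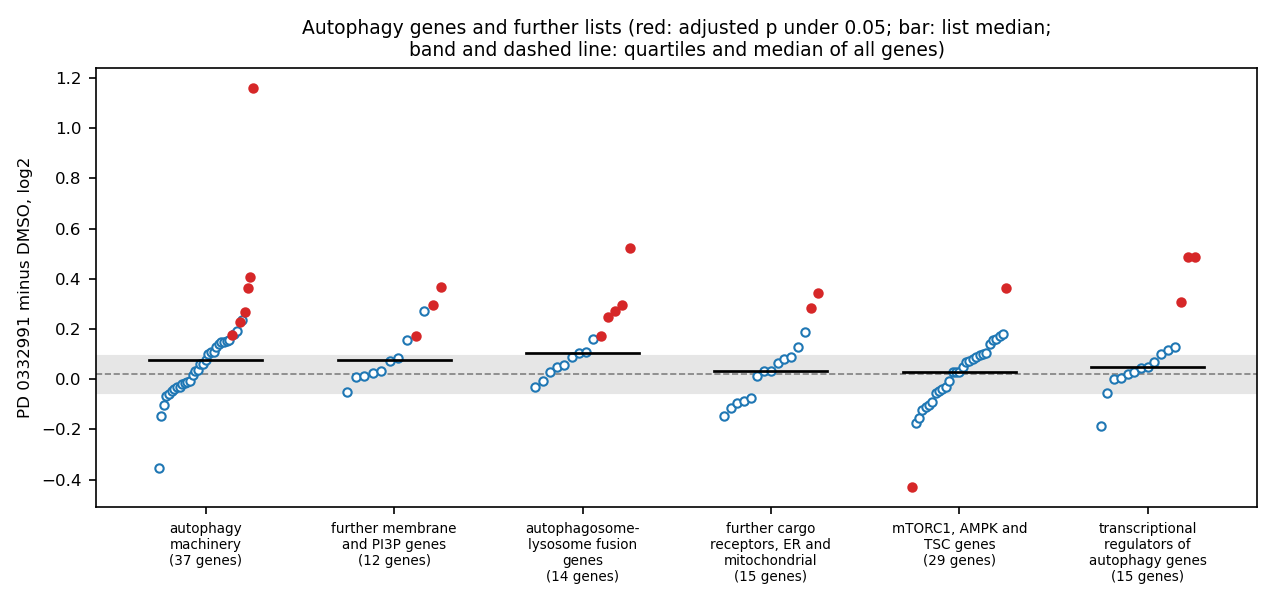
Log2 change (PD 0332991 minus DMSO, y axis) of each measured gene in the autophagy machinery and 5 further lists (x axis), red where the adjusted p was under 0.05, with list medians as bars and the quartiles of all genes as the grey band. List medians run from 0.03 to 0.11, within or just above the band; WIPI1 is the highest point at 1.16, and RHEB, at -0.43, is the red point below 0.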

How the data were processed

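Total RNA was hybridised to Affymetrix arrays, 3 per group. The deposited table gives each transcript cluster 1 value per array, read here as log2 expression from its range of 2.04 to 19.93; the log base is not stated. Per the submitters' processing notes, the values came from Expression Console; background correction and normalization are not given in the sources used here. The table holds 65535 clusters: 22685 name 1 gene, 1385 several and 41465 are unnamed here. Symbols came from the array's annotation and were updated through Entrez identifiers (20487 matched). The brightest cluster per gene was kept, with no minimum level.

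limma 3.58.1, run in R 4.3.3, compared the groups over all 22375 genes (1 mean per group, empirical Bayes, two-sided, Benjamini-Hochberg, threshold 0.05). Values are log2 expression, and ± gives the SE or SD named. Only genes past the threshold are said to rise or fall. For pairs of genes, an exact permutation test (two-sided) ran over the 20 assignments of 6 arrays. Every one of the 37 genes was named; those past the threshold and those in pairs were given on each array, and of the further lists up to 4 genes past the threshold with the smallest p, with exceptions said to be chosen after their values were seen; TECPR1 is in the fusion and membrane lists and falls under the latter. The members, pairs and lists were chosen with earlier results of these data known. The arrays' number limits precision.

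The limma step was tested on simulated data for PD 0332991 against DMSO, over 22375 genes with 200 changed: true log2 changes of 0.25, 0.5, 1 and 2 (50 genes each) were recovered for 10, 38, 48 and 49 genes respectively, with 12 calls among unchanged genes. In the measured data 2531 genes passed in either direction, far more than the 200 changed here. The simulated recovery may therefore differ from that of the measured data. Alternatives were quantile normalization, a filter on dim genes, the mean of a gene's clusters, another prior, the replicate number as a block and each array left out.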

Additional observations from a re-analysis of the deposited data

How the results depend on the processing

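WIPI1 and PIK3C3 kept their calls under every alternative run. The count of the 37 genes that rose was 6 to 8 under the other alternatives with all arrays, apart from the replicate block; BECN1 and ATG13 passed after quantile normalization (adjusted p = 0.0434 and 0.0378) and among genes above the median level of all clusters (0.0472 and 0.0497). Samples with the same replicate number deviated from their group means with correlations of -0.0065 to 0.037 over genes, so the numbers were not taken to pair the samples. With the replicate block 4 of the 37 rose and 1 fell (BNIP3, -0.35, adjusted p = 0.0310), GABARAP and TAX1BP1 having adjusted p of 0.0520 and 0.106; 786 of all genes and 8 of the further lists rose. With only genes above the median level of all clusters, 2 genes of the further lists fell. With an array left out, 2 to 4 of the 37 rose and 0 to 1 fell, 716 to 815 of all genes rose, and 5 to 8 genes of the further lists rose. Changes near 0 took either sign: after quantile normalization UVRAG was 0.031 and SQSTM1 0.024, and with an array left out the ranges were -0.0096 to 0.064 for WIPI2, -0.0010 to 0.066 for ULK1, -0.079 to 0.0079 for ATG5, -0.029 to 0.0044 for ATG7, -0.070 to 0.040 for UVRAG, -0.071 to 0.034 for MAP1LC3A, -0.040 to 0.016 for SQSTM1, -0.032 to 0.0014 for ATG4B minus ATG4D and -0.093 to 0.026 for GABARAPL1 minus GABARAPL2. The cause of these shifts was not tested, beyond that fewer arrays or genes entered some fits.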
